A study of Mus musculus with 12 samples.

Results

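Cyp11a1, Akr1c18, Fdx1, Fdxr, Star and Hsd3b1 are 6 genes of the machinery that makes and clears progesterone. They were chosen by name, with earlier results of these arrays known, and what drew attention to them was the level of Cyp11a1 and Akr1c18 in the labelled activated B cells arrays. Of these 6 genes, 5 were measured by a probe set that carried 1 gene symbol, each by a single probe set, among 19937 genes measured in that way. Fdxr was not analysed here.

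Steroid hormones are made from cholesterol. Star helps to move cholesterol to the inner mitochondrial membrane, where Cyp11a1, the side-chain cleavage enzyme, turns it into pregnenolone. Cyp11a1 is a cytochrome P450 and takes its electrons from the reductase Fdxr by way of the small iron-sulfur protein Fdx1. Hsd3b1 then converts pregnenolone to progesterone, and Akr1c18, a 20-alpha-hydroxysteroid dehydrogenase, reduces progesterone to a form that binds the progesterone receptor poorly. The pathway is best known from the adrenal gland, the gonads and the placenta, and Cyp11a1 is also known from mouse T helper 2 cells, the T cells that secrete IL-4 and IL-13.

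RNA from lymphocytes of the spleen of C57Bl/6 x FVB mice was hybridised to 12 Affymetrix mouse gene arrays, and the labels divide these into 4 groups of 3. The resting groups are CD43 negative B cells and B220 negative T cells taken straight from the spleen (day 0), sorted with magnetic beads. The activated groups are B cells cultured for 4 days with aCD40 and IL4, and T cells cultured for 4 days with aCD3, aCD28 and IL2. Each sample is a bulk population, in which fewer cells of a type and less RNA per cell cannot be told apart. The age of the mice is not given in the sources used here, nor whether the replicates were different animals, and p-values therefore measure the spread between these samples, which may be technical.

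The lineage genes went against the labels in all 4 groups, so every array is named below by its label and no group could be left out. The 8 T cell genes looked at, among them Cd3e and Cd3d of the T cell receptor complex, had a mean of 10.38 to 10.52 log2 in the labelled resting B arrays and 10.09 to 10.24 in the labelled activated B arrays. In the labelled resting T and activated T arrays the same genes lay at 5.62 to 6.08 and 5.61 to 6.58 log2. The 6 measured B cell genes, such as Cd79a and Cd79b of the B cell receptor complex, ran the other way, with 7.49 to 8.72 and 5.10 to 5.59 log2 in the labelled resting and activated B arrays against 10.10 to 10.42 and 11.33 to 11.53 in the labelled resting and activated T arrays. Genes of dividing cells were high in the labelled activated B arrays (10.15 to 10.18 log2) and in the labelled resting T arrays (9.80 to 9.86), and lay between 5.55 and 6.17 in the others. Values are log2 levels made with RMA, and the background was taken as 5.21 log2, the 95th percentile of 1027 olfactory receptor genes. Levels of different genes are not compared, since each comes from its own probes.

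The sequences around the start sites are shown for Cyp11a1 and Akr1c18 because both genes were high in the labelled activated B arrays, the pattern they were chosen for. They were taken from RefSeq on build GRCm38.p6 and run 5′ to 3′ on the strand of the gene, from 250 bases before the start to 50 after it. The capitals mark matches, on either strand, to 5 motifs that were searched, namely the nuclear receptor motif AGGTCA, the STAT motif TTCNNNGAA, its wider form with 4 bases between TTC and GAA, the GATA motif AGATAA and the cyclic AMP response element TGACGTCA. RefSeq lists 2 starts for Cyp11a1, at chr9:57997774-57998073 and chr9:58014702-58015001 (plus strand), and the arrays do not tell which was used. Akr1c18 has 1, at chr13:4150597-4150896 (minus strand).
Cyp11a1, start 1: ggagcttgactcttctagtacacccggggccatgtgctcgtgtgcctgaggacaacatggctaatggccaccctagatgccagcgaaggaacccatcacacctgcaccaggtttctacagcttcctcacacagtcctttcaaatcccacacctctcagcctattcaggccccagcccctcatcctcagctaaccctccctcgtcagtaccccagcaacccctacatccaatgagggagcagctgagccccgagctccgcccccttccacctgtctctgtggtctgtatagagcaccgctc
Cyp11a1, start 2: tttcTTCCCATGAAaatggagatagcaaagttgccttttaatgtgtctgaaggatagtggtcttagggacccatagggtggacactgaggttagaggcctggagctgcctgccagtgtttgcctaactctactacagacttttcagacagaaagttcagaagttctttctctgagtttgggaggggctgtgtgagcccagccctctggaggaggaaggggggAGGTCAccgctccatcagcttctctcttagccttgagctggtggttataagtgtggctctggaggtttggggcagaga
Akr1c18: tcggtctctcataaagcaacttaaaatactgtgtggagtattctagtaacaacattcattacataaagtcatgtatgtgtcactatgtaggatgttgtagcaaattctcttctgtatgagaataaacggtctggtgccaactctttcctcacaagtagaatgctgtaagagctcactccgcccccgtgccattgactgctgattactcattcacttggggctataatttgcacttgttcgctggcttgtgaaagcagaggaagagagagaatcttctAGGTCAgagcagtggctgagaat
The window at the first Cyp11a1 start held no match. The window at the second held AGGTCA 28 to 23 bases before the start and TTCCCATGAA, a match to the wider STAT motif, 246 to 237 bases before it. The Akr1c18 window held AGGTCA at bases 27 to 32 after the start. Of 32851 such windows, 16.3% held AGGTCA, 6.95% the wider STAT motif, 8.30% TTCNNNGAA, 11.2% AGATAA and 1.79% TGACGTCA, so that the shared motif is a common one. A match is a run of letters and not a measured binding site. No match was found in the window of Fdx1, and that of Hsd3b1 held TTCTCAGAA 122 to 114 bases before the start and the GATA motif on the opposite strand 134 to 129 bases before it. The windows of Akr1c13 and Akr1c12, relatives of Akr1c18, held no match, and no window was at hand for Star.

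Cyp11a1 and Akr1c18 were at or near the background in 3 of the labelled groups and far above it in the labelled activated B arrays. Cyp11a1 was at 10.82, 10.84 and 10.98 log2 in replicates 1 to 3 labelled activated B. It was at 5.33, 5.03 and 4.96 log2 in the labelled resting B arrays, at 4.56, 4.82 and 4.44 in the labelled resting T arrays and at 4.45, 4.49 and 5.003 in the labelled activated T arrays. The 3 labelled activated B arrays stood apart from the other arrays by a gap of 5.49 log2, and apart from them only 1 array, replicate 1 labelled resting B, was above 5.21 log2. The mean was 10.88 ± 0.08 log2 (SD, n = 3) in the labelled activated B arrays against 5.11 ± 0.20, 4.60 ± 0.19 and 4.65 ± 0.31 in the labelled resting B, resting T and activated T arrays.

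Akr1c18 was at 11.45, 10.86 and 10.52 log2 in the labelled activated B arrays. Its level was 3.95, 3.72 and 3.54 log2 in the labelled resting B arrays, 3.46, 3.39 and 3.59 in the labelled resting T arrays and 3.56, 3.69 and 3.77 in the labelled activated T arrays. Only the labelled activated B arrays were above the background, and the gap between them and the highest of the other arrays was 6.58 log2. Within that group Akr1c18 spread more than Cyp11a1, with an SD of 0.47 against 0.08 log2 (n = 3 each).

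As differences of means, Cyp11a1 was 5.77 log2 (standard error 0.15) higher in the labelled activated B arrays than in the labelled resting B arrays, a ratio of 54.7, and Akr1c18 7.21 log2 (standard error 0.17) higher, a ratio of 148. Since both genes were chosen for this contrast, the differences that involve the labelled activated B arrays are given as a description of the members, with no test. The low side of each ratio lies at or under the background, so that a firmer bound is the level over the background itself, at least 50.9-fold for Cyp11a1 and at least 53.2-fold for Akr1c18. Against the labelled activated T arrays the differences were 6.24 log2 for Cyp11a1 and 7.27 for Akr1c18, and against the labelled resting T arrays they were 6.28 and 7.46. The standard errors come from a fit with 1 variance per gene, shared by the 4 groups. For Akr1c18 the SD was 0.47 log2 in the labelled activated B arrays and 0.10 to 0.21 in the other groups. Its standard error of 0.17 thus rests in part on the narrower groups.

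**Figure D1:**
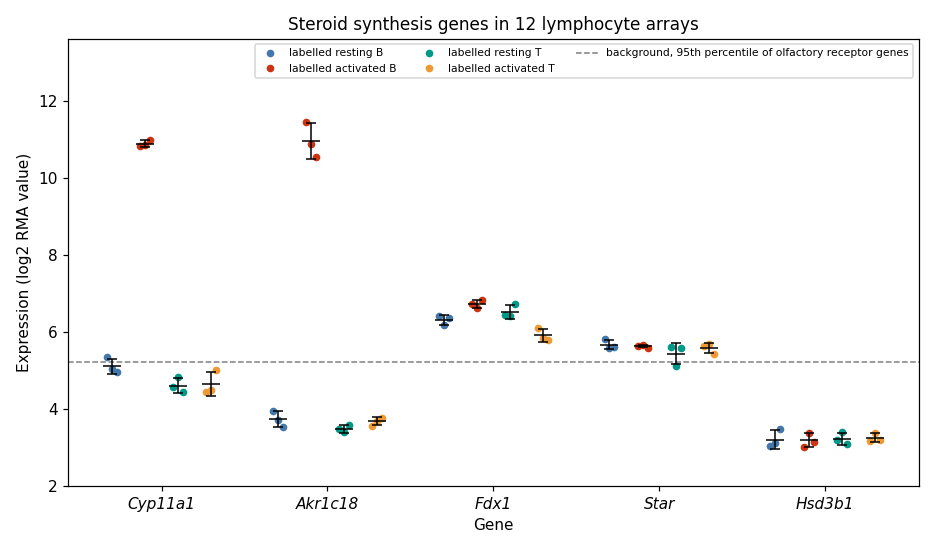
Log2 level (RMA) of Cyp11a1, Akr1c18, Fdx1, Star and Hsd3b1 in each of the 12 arrays by labelled group, with points for arrays, bars for the mean and SD (n = 3) and a dashed line at the background of 5.21 log2. Cyp11a1 and Akr1c18 lie between 10.52 and 11.45 log2 in the 3 labelled activated B arrays and at most at 5.33 elsewhere, while Fdx1, Star and Hsd3b1 span 1.05, 0.69 and 0.46 log2 over all arrays.

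Fdx1, the electron donor of Cyp11a1, was above the background in all 12 arrays and spanned 1.05 log2 over them. It was at 6.71, 6.62 and 6.83 log2 in the labelled activated B arrays and at 6.42, 6.41 and 6.72 in the labelled resting T arrays, and these groups overlapped. The labelled resting B arrays were at 6.41, 6.17 and 6.36 log2 and the labelled activated T arrays at 6.10, 5.83 and 5.77, the lowest of the 4 groups. The mean in the labelled activated B arrays was 0.41 log2 (standard error 0.12) above that in the labelled resting B arrays, 0.82 above that in the labelled activated T arrays and 0.20 above that in the labelled resting T arrays. Its 2 highest group means were thus in the labelled activated B and resting T arrays, where the genes of dividing cells were high (array means 9.80 to 10.18 log2, against 5.55 to 6.17 in the other arrays), and the part of cell division in the level of Fdx1 was not tested.

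Star was close to the background in every group. It was at 5.80, 5.59 and 5.61 log2 in the labelled resting B arrays, at 5.64, 5.66 and 5.59 in the labelled activated B arrays, at 5.61, 5.11 and 5.58 in the labelled resting T arrays and at 5.63, 5.68 and 5.42 in the labelled activated T arrays. The ranges of all 4 groups overlapped, and replicate 5 labelled resting T was the 1 array under 5.21 log2. The mean in the labelled activated B arrays was -0.04 log2 from that in the labelled resting B arrays, with a standard error of 0.13, and this difference was -0.14 when each array was centred on its 75th percentile. Hsd3b1 lay under the background in all 12 arrays, between 3.02 and 3.48 log2, and its group means spanned 3.18 to 3.25 log2. Levels under the background are only an upper bound on the transcript.

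In the 3 comparisons that leave out the labelled activated B arrays, the members were tested with limma, with p-values adjusted over all 19937 genes by the method of Benjamini and Hochberg and called under 0.05. In the labelled activated T arrays against the labelled resting T arrays, Fdx1 fell by 0.62 log2 (standard error 0.12, adjusted p = 0.000419 from limma), with no overlap of the arrays. Fdx1 was the only 1 of the 5 measured members called there, beside 17.8% of all genes called lower and 15.9% called higher. Adjusted p-values from limma for the others were 0.877 for Cyp11a1, 0.451 for Akr1c18, 0.454 for Star and 0.882 for Hsd3b1, at differences of 0.04, 0.20, 0.14 and 0.04 log2.

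In the labelled resting B arrays against the labelled resting T arrays, Cyp11a1 was the 1 member called, with a difference of 0.50 log2 (standard error 0.15, adjusted p = 0.0115 from limma), where 16.1% of all genes were called higher and 19.0% lower. Both means of Cyp11a1 lie under the background, and the call was lost without replicate 1 labelled resting B (0.39 log2, adjusted p = 0.0695 from limma) or without replicate 6 labelled resting T (0.42 log2, adjusted p = 0.058 from limma). Akr1c18 differed by 0.25 log2, Fdx1 by -0.21, Star by 0.23 and Hsd3b1 by -0.02, with adjusted p-values from limma of 0.313, 0.204, 0.182 and 0.955.

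In the labelled resting B arrays against the labelled activated T arrays, Cyp11a1 (0.46 log2, adjusted p = 0.0348 from limma) and Fdx1 (0.41 log2, adjusted p = 0.0188 from limma) were called higher, beside 9.68% of all genes called higher and 8.82% lower. For Cyp11a1 the arrays of the groups overlapped, and the adjusted p from limma rose to 0.159, 0.0526, 0.157 and 0.15 without replicates 1 or 2 labelled resting B or replicates 4 or 5 labelled activated T. For Fdx1 it rose to 0.0752, 0.0672, 0.0784 and 0.0877 without replicates 1 or 3 labelled resting B or replicates 5 or 6 labelled activated T, at differences of 0.34 to 0.38 log2. Akr1c18 (0.06 log2), Star (0.09) and Hsd3b1 (-0.05) had adjusted p-values from limma of 0.892, 0.734 and 0.868.

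The wider pathway was followed in a list of 89 further genes of steroid synthesis, conversion and response, of which 74 were measured and 42 had a group mean above the background. In the labelled activated B arrays against the labelled resting B arrays, 16 of these 74 genes were called higher and 11 lower, and 47 did not pass the test. Over all genes the shares were 19.7% higher and 16.7% lower, and the median difference was 0.05 log2 in the list and -0.02 over all genes. In the labelled activated T arrays against the labelled resting T arrays, 14 were higher and 15 lower (15.9% and 17.8% of all genes), with a median of 0.00 in the list and 0.02 log2 over all genes. The list was therefore near the background shares in both, while single members of it moved by up to 3.09 log2.

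In the comparison of the labelled activated B arrays with the labelled activated T arrays, 17 of the 74 genes were higher and 13 lower, beside 21.8% and 18.9% of all genes. Against the labelled resting T arrays, 12 were higher and 4 lower, beside 13.0% and 9.93%. The labelled resting B arrays against the labelled resting T arrays gave 14 higher and 13 lower (16.1% and 19.0% of all genes), and against the labelled activated T arrays 8 higher and 8 lower (9.68% and 8.82%). The medians of the list in these 4 comparisons were 0.04, 0.01, 0.01 and -0.01 log2, beside -0.03, -0.01, -0.00 and -0.01 over all genes. Comparisons that share a group share its arrays.

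**Figure D2:**
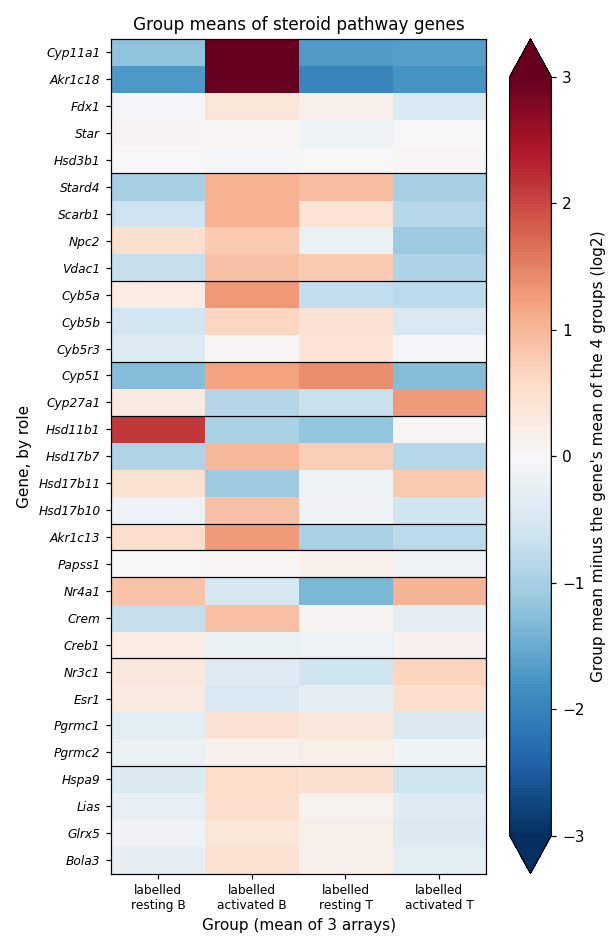
Mean log2 level of each measured member and of named pathway and iron-sulfur genes in the 4 labelled groups, as the difference from the mean of the gene over the groups, with rows grouped by role and the colour scale ending at ±3 log2. Cyp11a1 and Akr1c18 stand out in the labelled activated B arrays alone, while Stard4, Cyp51 and Hsd17b7 share high values between the labelled activated B and resting T arrays.

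All 11 measured genes of cholesterol delivery were above the background. In the labelled activated B arrays against the labelled resting B arrays, 4 were higher, 3 lower and 4 not called (19.7% and 16.7% of all genes higher and lower), and in the labelled activated T arrays against the labelled resting T arrays 4 were higher, 4 lower and 3 not called (15.9% and 17.8%). Stard4, a carrier of cholesterol between membranes, was at 7.54, 9.58, 9.47 and 7.54 log2 in the labelled resting B, activated B, resting T and activated T arrays. It rose by 2.04 log2 (adjusted p = 2.05e-10 from limma) between the labelled B groups, and fell by 1.92 (adjusted p = 4.25e-10 from limma) between the labelled T groups. Scarb1, the receptor that takes up cholesterol from high-density lipoprotein, rose by 1.65 and fell by 1.27 log2 in the same comparisons, and Vdac1, a channel of the outer mitochondrial membrane, rose by 1.60 and fell by 1.71. Stard4, Scarb1 and Vdac1, like Fdx1, had their 2 highest group means in the labelled groups in which the genes of dividing cells were high. So had Cyb5b, Cyb5r3, Cyp51, Hsd17b7, Hsd17b10, Papss1, Crem, Pgrmc1, Pgrmc2, Hspa9, Lias, Glrx5 and Bola3, which makes 17 of 32 members, named genes and relatives examined, beside 24.9% of all genes. Most of these 32 genes were named for the range of their group means, so the share among them cannot be set against that of all genes. Of the relatives of members, only Akr1c12 and Akr1c13 were among the 32. The order is of means alone, and some gaps were small. In the labelled activated B arrays Papss1 was at 7.12 log2 against 7.09 in resting B, and Cyb5r3 at 7.78 against 7.70 in activated T. Hsd17b10 was at 9.04 log2 in the labelled resting T arrays against 8.96 in resting B. None of these differences was called, and the arrays overlapped. The part of cell division in the levels of the 17 genes was not tested. Npc2, which moves cholesterol out of lysosomes, was 1.89 log2 higher (adjusted p = 3.12e-10 from limma) in the labelled activated B arrays than in the labelled activated T arrays.

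Among genes of electron transfer, all 3 measured ones were higher in the labelled activated B arrays than in the labelled resting B arrays, as were 19.7% of all genes. Cyb5a, cytochrome b5, which aids some steroid P450 enzymes, was at 9.97 log2 in the labelled activated B arrays against 8.88, 7.91 and 7.88 in the labelled resting B, resting T and activated T arrays. It was higher in the labelled activated B arrays than in each other group, by 1.09, 2.06 and 2.08 log2 (adjusted p = 9.69e-08, 5e-11 and 1.7e-11 from limma). It was not called between the labelled activated T and resting T arrays, at -0.03 log2 with an adjusted p of 0.876 from limma. Cyb5b, the form of cytochrome b5 on the outer mitochondrial membrane, rose by 1.23 and fell by 0.91 log2 in the comparisons within labelled B and labelled T cells, and the reductase Cyb5r3 rose by 0.45 and fell by 0.44.

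Fdx1 carries an iron-sulfur cluster, and 14 of 15 listed genes of iron-sulfur cluster assembly and lipoylation were measured. Lias, Lipt1 and Lipt2 stand in this list for lipoylation, the making and attachment of lipoic acid. The group means of Lipt1, at 4.68 to 5.13 log2, were all under the background. Of these 14, 9 were higher and 1, Isca1, lower in the labelled activated B arrays than in the labelled resting B arrays, beside 19.7% and 16.7% of all genes, with a median of 0.40 log2 against -0.02 over all genes. In the labelled activated T arrays against the labelled resting T arrays, 8 were lower and none higher, beside 17.8% and 15.9% of all genes, with a median of -0.35 log2 against 0.02 over all genes, and 5 passed the test without replicate 5 labelled resting T. The genes of dividing cells moved the same way, from array means of 5.72 to 6.17 log2 in the labelled resting B arrays to 10.15 to 10.18 in the labelled activated B arrays, and from 9.80 to 9.86 in the labelled resting T arrays to 5.55 to 6.16 in the labelled activated T arrays. The part of cell division in the counts and medians of the iron-sulfur list was not tested. Hspa9, the mitochondrial chaperone of cluster transfer, was at 9.96, 10.95, 10.88 and 9.79 log2 in the labelled resting B, activated B, resting T and activated T arrays, a rise of 0.98 (adjusted p = 1.15e-06 from limma) and a fall by 1.10 log2 (adjusted p = 3.73e-07 from limma). Lias, the lipoic acid synthase that holds such clusters, rose by 0.78 and fell by 0.48, Glrx5, a glutaredoxin of cluster transfer, rose by 0.48 and fell by 0.61, and Bola3 rose by 0.76 and fell by 0.46 log2. As for Fdx1, the lowest of the 4 group means of Hspa9, Lias, Glrx5 and Bola3 was in the labelled activated T arrays. The labelled resting B means lay above these by 0.18, 0.12, 0.32 and 0.02 log2. Only Glrx5 was called there (adjusted p = 0.0146 from limma), beside 9.68% of all genes called higher, so the other genes were not separated between these groups.

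Of the 9 other steroid P450 enzymes measured, 1 rose and 1 fell in the labelled activated B arrays against the labelled resting B arrays, beside 19.7% and 16.7% of all genes. Cyp51, the lanosterol demethylase of cholesterol synthesis, was at 6.18, 8.68, 8.89 and 6.17 log2 in the labelled resting B, activated B, resting T and activated T arrays. It rose by 2.50 log2 (adjusted p = 2.9e-09 from limma) in the labelled B groups and fell by 2.71 (adjusted p = 1.13e-09 from limma) in the labelled T groups. Cyp27a1, a mitochondrial sterol hydroxylase that also takes electrons from Fdx1, ran the other way, with a fall by 1.14 and a rise of 1.95 log2. It was at 6.34, 5.20, 5.40 and 7.35 log2 in the same order of groups. The low side of both changes thus lay near the background of 5.21 log2, which limits their sizes. The enzymes that act after Cyp11a1 in the adrenal gland were low in all groups. Cyp17a1, Cyp21a1 and Cyp11b1 stayed under the background in every array, at 3.59 to 4.08, 4.34 to 4.95 and 4.13 to 4.86 log2, and Cyp11b2 was at 5.27 to 5.79 log2 with no comparison called.

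Of the 19 measured hydroxysteroid dehydrogenases and reductases, 3 were higher and 2 lower in the labelled activated B arrays than in the labelled resting B arrays, beside 19.7% and 16.7% of all genes. Hsd11b1, which regenerates active glucocorticoid, had its highest level in the labelled resting B arrays, with 7.60, 7.87 and 7.69 log2. It was at 4.39, 4.88 and 4.63 log2 in the labelled activated B arrays and at 4.37, 4.17 and 4.72 in the labelled resting T arrays, all under the background, and at 5.62, 5.75 and 5.58 in the labelled activated T arrays. It was therefore lower by 3.09 log2 in the labelled activated B arrays than in the labelled resting B arrays (adjusted p = 3.07e-11 from limma) and higher by 1.23 log2 in the labelled activated T arrays than in the labelled resting T arrays (adjusted p = 2.26e-06 from limma). The myeloid genes, 6 of 6 above the background in the labelled resting B arrays (array means 7.21 to 7.81 log2), 2 of 6 in the labelled activated B arrays (4.76 to 4.84), 5 of 6 in the labelled resting T arrays (6.18 to 6.40) and 6 of 6 in the labelled activated T arrays (6.86 to 7.30), had their highest mean over the list in the labelled resting B arrays, although Mpeg1 was highest in the labelled activated T arrays (8.67 log2) and Cd68 in the labelled resting T arrays (7.45 log2). The 4 genes of NK cells were each highest in the labelled resting B arrays, with array means of 7.20 to 7.92, 4.25 to 4.82, 4.61 to 5.24 and 5.48 to 6.62 log2 in the same order of groups and 4, 1, 1 and 4 of them above the background. The part of these cells in the level of Hsd11b1 was not tested.

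Hsd17b7, an enzyme of cholesterol synthesis that can also act on oestrone, rose by 1.90 log2 and fell by 1.59 in the comparisons within labelled B and labelled T cells. Hsd17b11 fell by 1.56 and rose by 0.94 log2. Hsd17b10, a mitochondrial dehydrogenase of wide use, was at 10.01 log2 in the labelled activated B arrays against 8.96, 9.04 and 8.53 in the labelled resting B, resting T and activated T arrays, and was 1.05, 0.97 and 1.48 log2 above them (adjusted p = 3.67e-07, 1.57e-06 and 3.67e-09 from limma). Of the relatives of Hsd3b1, Hsd3b2, Hsd3b3, Hsd3b5 and Hsd3b6 were under the background in every array. Hsd3b7, which acts on bile acid precursors, was at 5.15 to 5.72 log2 with no comparison called. With Hsd3b1 at 3.02 to 3.48 log2, none of the 6 measured Hsd3b genes was above 5.72 log2 in any array.

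**Figure D3:**
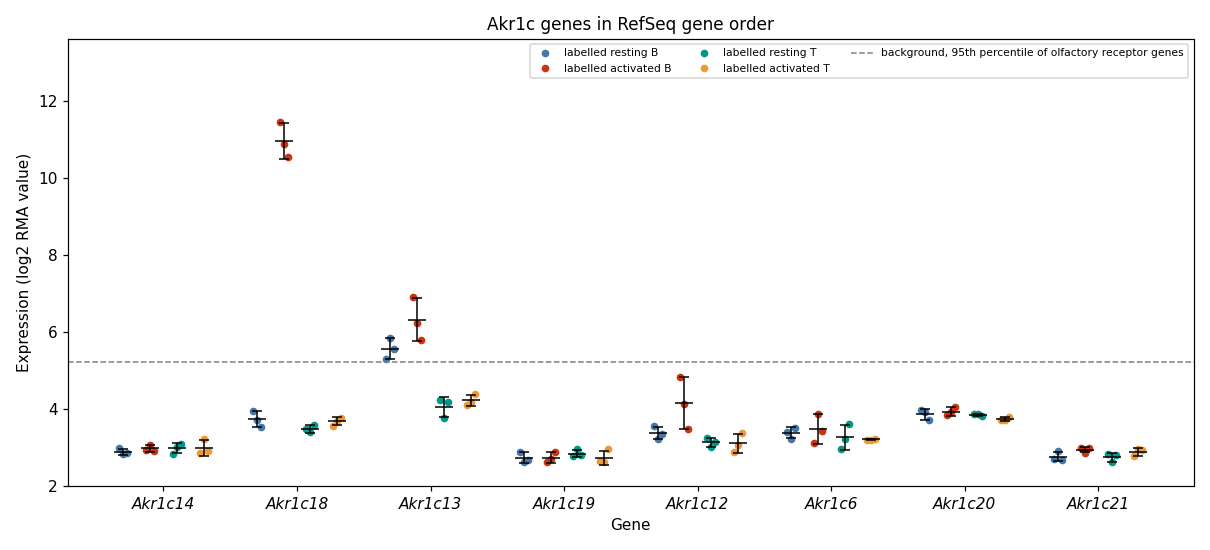
Log2 level (RMA) in each array of Akr1c18 and its neighbours of the Akr1c family in RefSeq gene order, by labelled group, with bars for the mean and SD (n = 3) and the background of 5.21 log2 as a dashed line. Akr1c18 reaches 10.52 to 11.45 log2 in the labelled activated B arrays, Akr1c13 5.79 to 6.90, and the relatives other than Akr1c13 stay below the line.

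Akr1c18 lies in a cluster of related genes, and RefSeq places Akr1c14 on one side of it and Akr1c13, Akr1c19, Akr1c12, Akr1c6, Akr1c20 and Akr1c21 in that order on the other. Of the 9 aldo-keto reductases measured beside Akr1c18, 2 were higher in the labelled activated B arrays than in the labelled resting B arrays, Akr1c13 and Akr1c12, a share near the 19.7% of all genes. Akr1c13 was at 6.90, 6.24 and 5.79 log2 in the labelled activated B arrays, at 5.29, 5.83 and 5.55 in the labelled resting B arrays and between 3.75 and 4.38 in the labelled T groups. The labelled B groups overlapped, at a difference of 0.75 log2 (standard error 0.21, adjusted p = 0.01 from limma), and the call was lost without replicate 1 labelled activated B (0.46 log2, adjusted p = 0.064 from limma) or replicate 1 labelled resting B (0.62 log2, adjusted p = 0.0596 from limma). Against the labelled resting T and activated T arrays Akr1c13 was higher by 2.26 and 2.09 log2 (adjusted p = 3.85e-07 and 4.26e-07 from limma), and the labelled resting B arrays were also higher than the labelled resting T arrays, by 1.504 log2 (adjusted p = 2.35e-05 from limma).

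Akr1c12 was under the background in all arrays, at 4.84, 4.13 and 3.47 log2 in the labelled activated B arrays and 3.55, 3.23 and 3.36 in the labelled resting B arrays. Its difference of 0.77 log2 (adjusted p = 0.0144 from limma) was not called without replicate 1 labelled activated B (0.43 log2, adjusted p = 0.0861 from limma) or replicate 2 labelled resting B (0.70 log2, adjusted p = 0.0545 from limma). Replicates 1, 2 and 3 labelled activated B stood in the same order for Akr1c18, Akr1c13 and Akr1c12. Whether RNA of Akr1c18 binds the probes of its relatives was not tested. Akr1c14, Akr1c19, Akr1c6, Akr1c20 and Akr1c21 stayed between 2.62 and 4.04 log2 in all arrays.

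Of 10 measured regulators of steroid enzyme genes, 1 was higher and 2 lower in the labelled activated B arrays than in the labelled resting B arrays, beside 19.7% and 16.7% of all genes. Nr4a1, an orphan nuclear receptor that acts on steroid enzyme genes, was at 7.78, 6.44, 5.56 and 7.95 log2 in the labelled resting B, activated B, resting T and activated T arrays, a fall by 1.34 (adjusted p = 4.1e-07 from limma) and a rise of 2.39 log2 (adjusted p = 3.59e-10 from limma). Crem, a factor that responds to cyclic AMP, was highest in the labelled activated B arrays, at 7.30 log2 against 5.68, 6.48 and 6.10, and rose by 1.62 log2 from the labelled resting B arrays (adjusted p = 9.18e-09 from limma). Of 7 steroid receptors, 2 were higher and 3 lower in that comparison. Nr3c1, the glucocorticoid receptor, fell by 0.71 and rose by 1.26 log2 in the comparisons within labelled B and labelled T cells, the oestrogen receptor Esr1 fell by 0.70 and rose by 0.79, and Pgrmc1, a membrane protein that binds haem and is linked to progesterone response, rose by 0.76 and fell by 0.75. The low sides of the Esr1 changes, at 5.42 and 5.57 log2 in the labelled activated B and resting T arrays, lay near the background of 5.21. Of the 2 trophic hormone receptors and 4 sulfation genes measured, none was called in the labelled B groups.

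**Figure D4:**
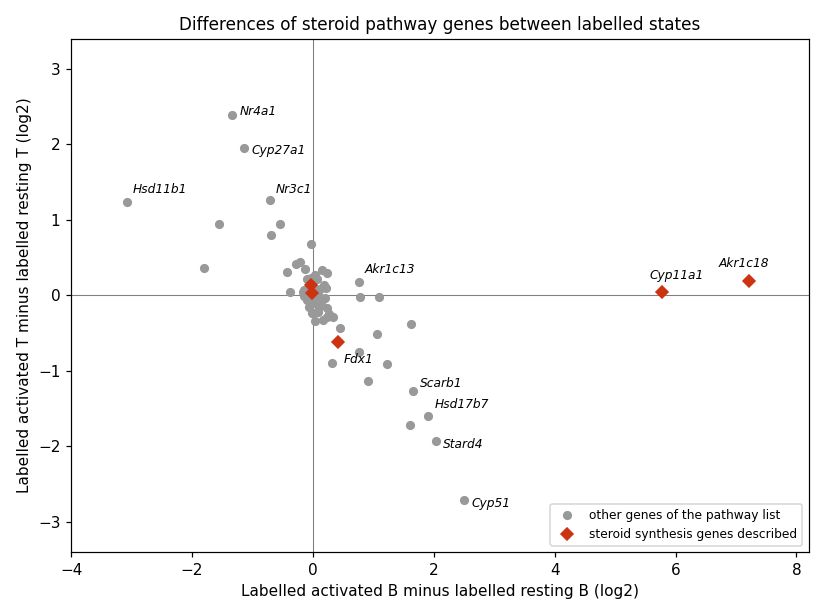
Difference between the labelled activated and resting T arrays (vertical axis, log2) against that between the labelled activated and resting B arrays (horizontal axis, log2) for the measured members (diamonds) and the other genes of the pathway list (grey points). Cyp11a1 and Akr1c18 lie at 5.77 and 7.21 log2 on the horizontal axis and at 0.04 and 0.20 on the vertical, while Cyp51, Stard4 and Scarb1 lie at positive values on the horizontal axis and negative ones on the vertical.

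The genes most like each member were found by Pearson correlation over the 12 arrays, among 12866 genes with a group mean above the background. These correlations are a description, since the arrays fall into 4 groups and a gene high in 1 group alone gives a high value with any other such gene. The genes most like Cyp11a1 were Cysltr1 (r = 0.996), Lama5 (0.994), Akr1c18 (0.994), Neb (0.992) and Il24 (0.992), and those most like Akr1c18 were Il24 (0.996), Il13 (0.995), Cysltr1 (0.995), Cyp11a1 (0.994) and Il10 (0.994). At r of at least 0.98 there were 35 genes for Cyp11a1 and 37 for Akr1c18. Il24, a cytokine of T helper 2 cells, was at 10.88 log2 in the labelled activated B arrays against 4.26, 4.15 and 4.53 in the labelled resting B, resting T and activated T arrays. Il13, another cytokine of these cells, was at 7.83 log2 against 5.56, 5.54 and 5.68, Il10, an anti-inflammatory cytokine, at 8.04 against 3.70, 3.75 and 3.70, and the leukotriene receptor Cysltr1 at 8.47 against 4.58, 4.26 and 4.33.

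**Figure D5:**
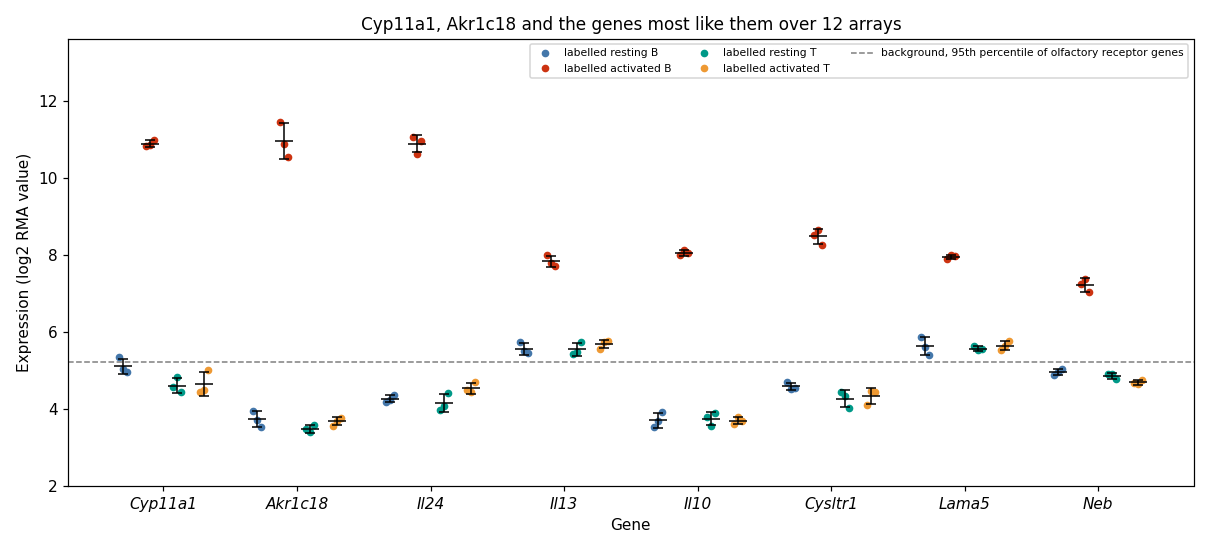
Log2 level (RMA) in each array, by labelled group, of Cyp11a1, Akr1c18 and the genes whose pattern over the 12 arrays is most like theirs, with bars for the mean and SD (n = 3) and the background of 5.21 log2 as a dashed line. For each gene the 3 labelled activated B arrays lie above all other arrays, with means of 10.88 log2 for Il24 and 8.47 for Cysltr1.

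Of 7 measured T helper 2 genes, 6 were above the background in the labelled activated B arrays (array means over the list 8.15 to 8.38 log2), 4 in the labelled resting B arrays (5.52 to 5.65) and 2 in each labelled T group (4.63 to 4.87 and 4.71 to 4.81). Il5, a cytokine of the list, was under the background in every group, at 4.56 log2 in the labelled activated B arrays. Il13 and Il24, named above among the genes most like members, belong to this list as well. The list was chosen with earlier results of these arrays known, so these counts are a description. Gata3, the transcription factor of that lineage, was at 8.47, 10.32, 5.15 and 5.06 log2 in the labelled resting B, activated B, resting T and activated T arrays, and Il4 at 5.75, 7.86, 4.93 and 5.02. Of 8 genes of mast cells and basophils, which also make IL-4 and IL-13, only Gata2 was above the background in the labelled activated B arrays, with array means over the list of 4.34 to 4.39 log2. Of 5 genes of steroid-producing glands, only Nr5a1 was, as in the other 3 groups, with array means of 4.37 to 4.68 log2 over all 12 arrays.

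The genes most like Fdx1 were others. Snhg5 (r = 0.964), Eif4e2 (0.955), Memo1 (0.951), Rrp15 (0.950) and Wdr55 (0.947) led its list, with 135 genes at r of at least 0.9 and none at 0.98. For Star, whose group means spanned 0.23 log2, 1 gene reached 0.9, 4930432K21Rik (r = 0.902), followed by Ptgis (0.884), Fzd10, Speg and Magi1.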

How the data were processed

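Each deposited value is a log2 level of 1 probe set on 1 array, made by the authors. The submitters' processing notes name RMA (background correction, quantile normalization and summary of the probes of a set). The RMA version and a genome build were not given in the sources used here. RMA compresses low values, which understates ratios against a level near the background, and hides a shift of most genes in 1 direction. Arrays have no read depth, and their number (3 in a group) limits the precision. Array medians lay between 5.50 and 5.68 log2, and no array was a copy of another, with at most 0.0803% of values equal between 2 arrays.

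Of 34760 probe sets, 21640 carried 1 symbol, 1321 several and 11799 no gene named here. For the 954 genes with several probe sets, the one with the highest mean over the 12 arrays was kept. The background level is the 95th percentile of the olfactory receptor genes, and 7767 genes had a mean at or below it. The means of the 4 labelled groups were estimated for all 19937 genes with limma 3.58.1 (R 4.3.3; 8 residual degrees of freedom), and the script was tested on simulated data. Tables and figures used Python 3.11.15, pandas 2.3.3 and matplotlib 3.10.9. The 6 pairwise comparisons were adjusted by Benjamini-Hochberg over all genes, with a threshold of 0.05.

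The members and lists were chosen with earlier results of these data known. Members were not tested against the arrays labelled activated B, since the choice used those values. Named are the members and their Akr1c and Hsd3b relatives; up to 4 genes of each role, called at least once, with a group mean above the background and the widest range of group means; for each member above the background the 5 most correlated genes; and the first 2 of each marker list. Not every such gene is printed. Isca1, Gata2, Nr5a1, Mpeg1, Cd68, Cyp17a1, Cyp21a1, Cyp11b1 and Cyp11b2 fall outside the rule and were picked once their values had been seen. Il5, Lipt1 and Lipt2 fall outside it as well. Fdxr and 15 of the 89 pathway genes were not analysed here.

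Over 12170 genes above the background, arrays that share a number had deviations from the group mean with correlations of -0.06, 0.06 and 0.25 (labelled B groups) and 0.22, 0.16 and 0.23 (labelled T groups), so that the numbers paired only the latter, by a rule of over 0.1 in every pair. The number as a block was an alternative, as were quantile normalization, centring on the median or 75th percentile, 2 filters on dim genes, all probe sets of a gene, only the groups compared, an intensity trend, array weights and leaving out each array. The settings for the iron-sulfur counts were added after seeing the data.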

Additional observations from a re-analysis of the deposited data

Results flagged for a closer look

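In 22 of the 32 members, named genes and relatives examined, and in 27.5% of all 19937 genes, every array labelled activated B lay on one side of the labelled resting B arrays and every array labelled activated T on the opposite side of the labelled resting T arrays. The difference between these 2 changes is given below in log2, as the change in the labelled B groups minus that in the labelled T groups, and was not tested. Most of the genes examined had been named for the range of their group means, so the share among them cannot be set against that of all genes. Of the relatives of members, only Akr1c12 and Akr1c13 were among the 32. The direction rests on the labels. Read as labelled resting minus activated T, the changes of these 22 genes run the same way in both. That follows from picking them for opposite changes, so it says nothing about the labels. The lineage genes went against the labels in all 4 groups, and the genes of dividing cells were high in the labelled activated B and resting T arrays.

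Among the members this held for Fdx1, with 1.03. In cholesterol delivery the values were 3.96 for Stard4, 2.92 for Scarb1 and 3.31 for Vdac1, and in electron transfer they were 2.14 for Cyb5b and 0.89 for Cyb5r3. Among the P450 enzymes Cyp51 had 5.22 and Cyp27a1 -3.10. Among the dehydrogenases Hsd17b7 had 3.49 and Hsd17b10 1.56, whereas Hsd11b1 had -4.32 and Hsd17b11 -2.50. Of the regulators, Crem had 2.0, Nr4a1 -3.73 and Creb1 -0.74. Of the receptors, Pgrmc1 had 1.51, Nr3c1 -1.97 and Esr1 -1.49. The iron-sulfur genes Hspa9, Lias, Glrx5 and Bola3 had 2.08, 1.26, 1.10 and 1.22.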

How the results depend on the processing

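No called difference of a member or named gene turned its direction under any alternative that was run. For the members, 240 of 244 values under the settings other than leaving out an array kept their side of the threshold or moved by less than the spread between arrays. The exceptions were Cyp11a1 in the labelled resting B arrays against the labelled activated T arrays, which lost its call with centring on the 75th percentile (0.44 log2, adjusted p = 0.0719 from limma) and with only the groups compared (0.46, adjusted p = 0.0617), and Star, at -0.14 and -0.067 log2 with that centring in the labelled activated B arrays against the labelled resting B and activated T arrays. Leaving out 1 array, Cyp11a1 ranged from 0.39 to 0.61 log2 in the labelled resting B arrays against the labelled resting T arrays and from 0.35 to 0.64 against activated T, where Fdx1 ranged from 0.34 to 0.51. The pathway counts stayed within 1.5 times under every setting. The iron-sulfur counts, of 14 genes, are given here with the main fit and the shares of all genes called higher and lower in it. They were 5 to 8 in the labelled activated T arrays against the labelled resting T arrays (main fit 8 lower, 15.9% and 17.8%). In the labelled resting B arrays against the labelled resting T arrays they were 5 to 10 (main fit 10 lower, 16.1% and 19.0%), with 5 without replicate 1 labelled resting B. In resting B against activated T they were 0 to 1 (main fit 1 higher, 9.68% and 8.82%), with 0 without replicate 3 labelled resting B or 5 labelled activated T. In activated B against resting T they were 1 to 5 (main fit 3 higher and 1 lower, 13.0% and 9.93%). That count was 1 without replicate 3 labelled activated B and 2 without replicate 4 or 5 labelled resting T. With the replicate number as a block, 26 pathway genes were called in the arrays labelled activated against resting B, where 27 were called without it, and 29 in the labelled T groups with or without it. Among the members and named genes the block ended 1 call, Pgrmc2 in the labelled T groups (adjusted p = 0.102 from limma). The causes were not tested. Signal near the background limits Cyp11a1 and Akr1c18 outside the labelled activated B arrays, and Star and Hsd3b1 throughout.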
